A study of Mus musculus with 13 samples.

Results

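The contrast described here asks, gene by gene, whether the difference between ipsilateral and contralateral hemispheres after controlled cortical impact departed from that after sham surgery. It compares group means, and sham animal 8 has a contralateral library only. It was computed as the ipsilateral minus contralateral log2 difference in the impact (CCI) mice, minus the same difference in the sham mice, and it used 13 of the 13 libraries of the series. All mice were wild-type C57BL/6 males of 12-16 weeks, with tissue taken on day 4, and every group shared surgery under anaesthesia and perfusion before the brain was taken. CCI drives a piston into the exposed cortex, so that the tissue below and around the impact is bruised while the opposite hemisphere is not struck. The groups were CCI ipsilateral (4 libraries, animals 1, 2, 3 and 5), CCI contralateral (4 libraries, the same animals), sham ipsilateral (2 libraries, animals 4 and 6) and sham contralateral (3 libraries, animals 4, 6 and 8). A library is named by its group and animal, such as sham ipsilateral 6. Polyadenylated RNA of a hemisphere was sequenced in bulk, so fewer cells of a type and less RNA per cell cannot be told apart in any result. In every animal the ipsilateral side was the right hemisphere, as the column names read, so that side and injury coincide within the CCI mice; left-right differences that are alike in both arms cancel in the contrast on the log2 scale.

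After a contusion, microglia and blood-borne macrophages clear debris by phagocytosis, lysosomal digestion and complement tagging, astrocytes around the lesion enlarge and build a scar, and neurons close to the impact die or fall silent. Type I interferon induces a set of antiviral and signalling genes through a promoter element bound by STAT and IRF factors. Immediate early genes such as Arc and the Egr and Nr4a families are switched on within minutes by synaptic activity and read out how active neurons were shortly before death.

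Total counts were 5604856 to 7444568 in the CCI contralateral, 7126708 to 7955076 in the CCI ipsilateral, 6578614 to 6855548 in the sham contralateral and 5908022 to 6874956 in the sham ipsilateral libraries, of which mitochondrial transcripts made up 6.79% to 9.03%. The first principal component of the 500 most variable genes held 50.9% of their variance and put the 4 CCI ipsilateral libraries at 22.6 to 34.4 and the other 9 between -18.3 and -5.10. The second held 6.32% and set the sham ipsilateral libraries of animals 4 and 6 apart at -13.3 and -11.4, against -5.55 to 9.76 in the other 11. Neuronal and astrocytic marker genes were abundant in all 13 libraries, as the hemisphere label implies. Markers of single brain regions differed between libraries of a group. In CCI contralateral 1, Oxt (oxytocin) had 0 counts, Hcrt (hypocretin) 1, Avp (vasopressin) 2 and Pmch (melanin-concentrating hormone) 12. The other 3 CCI contralateral libraries held 20 to 27, 21 to 28, 12 to 57 and 140 to 167 counts of these genes. Sham ipsilateral 6 was low in part of the same list (Oxt 9 counts against 40 in sham animal 4). A list of olfactory bulb genes summed to 55.2 CPM in CCI contralateral 2 and 52.4 in CCI ipsilateral 3. It summed to 17.1 to 29.9 CPM in the other 11 libraries. CPM are counts scaled to the library's total after TMM adjustment of that total. A list of midbrain and hindbrain genes summed to 59.1 CPM in CCI contralateral 5 against 24.2 to 47.0 in the other 12.

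Of 14875 genes tested, 720 (4.84%) had a higher hemisphere difference in CCI than in sham and 445 (2.99%) a lower one, or 7.83% in either direction, by edgeR's quasi-likelihood test with a Benjamini-Hochberg adjusted p under 0.05. In what follows a gene "rose" or "fell" in this sense, and its interaction is the log2 of the ratio between the CCI and the sham ipsilateral-to-contralateral ratios, with its standard error (SE). Counts of list members below stand beside these shares of 4.84% that rose and 2.99% that fell. The genes that rose moved far more than those that fell: the median interaction was 1.00 among the former and -0.40 among the latter, and 360 of the rises (2.42% of genes tested) but 16 of the falls (0.108%) were at least 2-fold. Most of this lay within the CCI mice, with a median hemisphere difference of 0.77 log2 among genes that rose and -0.28 among those that fell. In the same genes the median CCI minus sham difference was 0.96 and -0.39 on the ipsilateral side. On the contralateral side it was 0.03 and 0.003. The sham hemisphere difference was -0.16 and 0.13, a sign that selection by the contrast itself favours. The per-animal differences of the 4 CCI animals and the 2 sham animals did not overlap for 709 of the 720 and 444 of the 445. These genes were selected on the same libraries, which by itself favours such separation. Over all genes tested the per-animal differences did not overlap, with CCI higher, in 17% and, with CCI lower, in 14.9%. Sham was the less precise side, with a median SE of the hemisphere difference of 0.134 against 0.1003 in CCI and 0.168 for the interaction. Of the genes called, 61.8% rose. The share was 76.3% (887 rose, 275 fell) with library totals as the only scaling and 79.4% (632 rose, 164 fell) on log2(TPM + 1) values. It was lower, at 51.8% (705 rose, 655 fell), with each animal as a block, and 57.1% with DESeq2 and with voom. Leaving out sham ipsilateral 6 left 259 genes that rose and 134 that fell. Leaving out sham contralateral 8 left 461 that rose, and leaving out sham contralateral 4 left 283 that fell. Without both CCI contralateral 1 and sham ipsilateral 6, chosen after seeing the data, 194 genes rose and 88 fell. Of the genes described below that kept their call without sham ipsilateral 6, Tapbp, H2-Ab1, Tnfrsf1a, Gabra4, Aqp4, Atf3, Lyz2, Scn1a and Serpina3n then lost it, at adjusted p from 0.0502 to 0.0723.

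**Figure D1:**
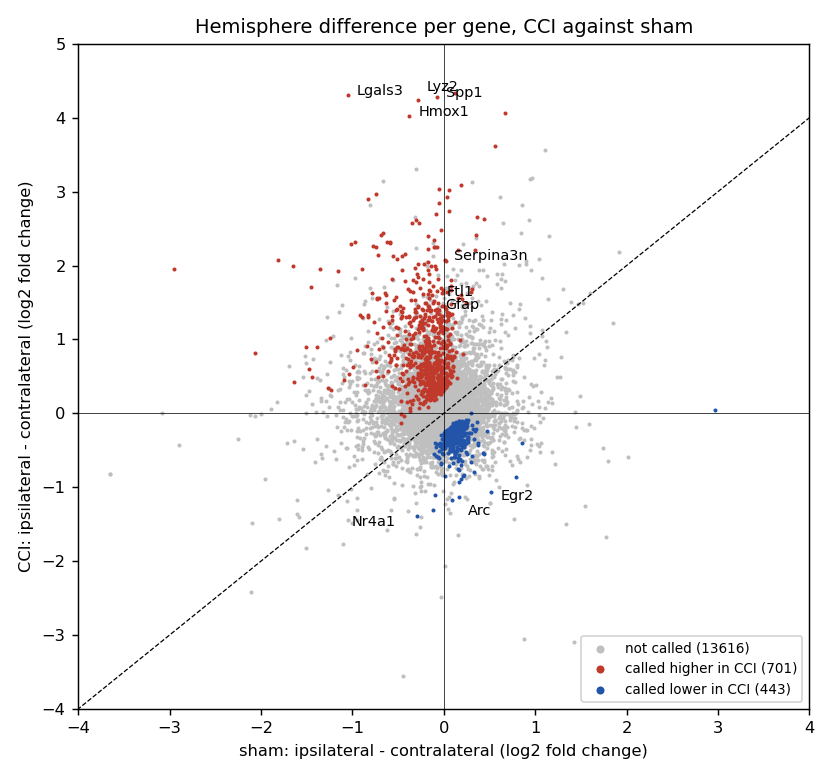
Hemisphere difference (ipsilateral minus contralateral, log2 fold change) in CCI on the vertical axis against sham on the horizontal axis, 1 point a gene, for the 14760 genes with more than 3 counts in each group; the dashed line marks equal differences, red and blue the genes that rose and fell. Red points reach a CCI difference of 4.31 for Lgals3, blue points stay mostly between 0 and -1, and grey points scatter along both axes.

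Phagocyte genes were among the largest rises. Lgals3 codes for galectin-3, a lectin that activated macrophages and microglia make and that binds damaged lysosomes. It stood at 31.0, 24.7, 35.4 and 31.3 CPM in the ipsilateral hemispheres of CCI animals 1, 2, 3 and 5. It was at 1.62, 2.10, 0.806 and 1.60 CPM in their contralateral hemispheres, at 0.517 and 0.302 in sham ipsilateral and at 1.19, 0.463 and 0.892 in sham contralateral libraries. No other group came near the CCI ipsilateral libraries, and the interaction was 5.36 ± 0.68 (SE; adjusted p = 9.4e-06 by edgeR), with 5 counts in all on the sham ipsilateral side. Spp1, the secreted phosphoprotein osteopontin, read 565, 459, 749 and 659 CPM in CCI ipsilateral, 26.8, 40.2, 33.4 and 22.4 in CCI contralateral, 17.4 and 16.6 in sham ipsilateral and 16.5, 17.4 and 19.9 in sham contralateral libraries. Its interaction was 4.37 ± 0.44 (adjusted p = 0.000581), with a hemisphere difference of 3.50 to 4.86 log2 in the 4 CCI animals and of -0.07 and 0.08 in the 2 sham animals. Lyz2, the lysozyme of myeloid cells, went from 12.6 to 27.0 CPM in CCI contralateral to 286 to 489 CPM in CCI ipsilateral libraries (interaction 4.52 ± 0.68, adjusted p = 0.00444; 0.0648 with each animal as a block). Arg1, which codes for an arginase found in alternatively activated macrophages, had 47 to 87 counts in each CCI ipsilateral library, 1 to 3 in each CCI contralateral library, and 0 to 3 in each sham library. The contrast passed (adjusted p = 0.00265; 0.108 without sham contralateral 4), but the sham counts are too few for a fold. Ccr2, the receptor that draws monocytes out of the blood, had 22 to 34 counts in CCI ipsilateral, 4 to 11 in CCI contralateral, 0 and 2 in sham ipsilateral and 4 in each sham contralateral library. It passed as well (adjusted p = 0.0161; 0.0973 without sham ipsilateral 4).

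Of 23 tested genes that mark lipid-handling activated microglia, 16 rose and none fell, with a median interaction of 1.19 (1.27 with a gene at 0 counts in a group set to its bound) beside 0.008 over all genes. They included Gpnmb, a lysosomal glycoprotein (4.21 ± 1.04, adjusted p = 0.0399), Cd68, a lysosomal membrane protein of macrophages (2.35 ± 0.26, adjusted p = 9.22e-07), and Apoe, the lipid carrier (0.73 ± 0.10, adjusted p = 5.6e-05). Ctsb, the lysosomal protease cathepsin B, read 1208, 1056, 1341 and 1261 CPM in CCI ipsilateral libraries and 633 to 644 in CCI contralateral, 566 and 588 in sham ipsilateral and 558 to 571 in sham contralateral libraries. Its groups were tight, and an interaction of 0.89 ± 0.09 was called at an adjusted p of 2.63e-07. Trem2, the lipid-sensing receptor of this state, did not pass (1.19 ± 0.34, adjusted p = 0.0516). Of 14 lysosomal genes 13 rose, with a median of 0.84. Hexa, a hexosaminidase subunit, rose by 1.04 ± 0.12 (adjusted p = 3.06e-06) and Ctsh, a cathepsin, by 1.69 ± 0.22 (adjusted p = 1.85e-05). Scarb2 did not pass (0.21, adjusted p = 0.123). Without sham ipsilateral 6 the counts of members that rose were 11 and 9.

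Complement and Fc receptor genes followed. Of 13 complement genes 11 rose, 5 without sham ipsilateral 6. C1qa is a chain of the recognition molecule C1q, which tags synapses and debris. It read 121, 101, 134 and 139 CPM in CCI ipsilateral and 41.0 to 49.7 in CCI contralateral libraries, against 26.4 to 31.7 over all 5 sham libraries (1.45 ± 0.18, adjusted p = 8.45e-05). C3, the central component, rose by 3.08 ± 0.81 (adjusted p = 0.0224), from 1.18 to 4.84 CPM in CCI contralateral to 9.44 to 15.7 CPM in CCI ipsilateral libraries. C3ar1, a receptor for its fragment, rose by 2.90 ± 0.52 (adjusted p = 0.00125). Of 14 Fc receptor and phagocytosis genes 8 rose: Fcer1g, the signalling chain shared by activating Fc receptors, by 1.88 ± 0.23 (adjusted p = 6.92e-06), and Cyba, a subunit of the phagocyte NADPH oxidase, by 2.31 ± 0.39 (adjusted p = 0.000402). The CCI contralateral libraries lay between sham and CCI ipsilateral for C1qa and for much of both lists. The median contralateral CCI minus sham difference was 0.55 log2 over the complement list and 0.58 over the Fc receptor list, beside -0.001 over all genes. It was 0.55 over the lipid-handling microglia list and 0.61 over a list of monocyte and macrophage genes. For Spp1, Lgals3, Cd68 and Lyz2 this difference was 0.79, 0.82, 0.86 and 1.04. The contrast leaves that shared rise out by construction, since it compares each hemisphere with the opposite one of its own group.

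Homeostatic microglial genes gave fewer calls. Of 15 tested, 5 rose, with a median interaction of 0.73, and 1 was called without sham ipsilateral 6; over all omissions of 1 library the number was 1 to 9. Olfml3 rose by 1.27 ± 0.25 (adjusted p = 0.00628) and Aif1, the cytoskeletal protein Iba1 used to stain microglia and macrophages, by 1.42 ± 0.33 (adjusted p = 0.00645; 0.11 without sham ipsilateral 6). The microglia-restricted membrane protein gene Tmem119 stood at 26.2, 20.5, 27.1 and 28.2 CPM in CCI ipsilateral and 12.8 to 20.3 CPM in all other libraries and did not pass (0.49 ± 0.21, adjusted p = 0.172). P2ry12, the ATP and ADP receptor that steers microglial processes, did not pass either (0.29 ± 0.25, adjusted p = 0.57). Its sham animals differed from each other by more than the CCI animals did, at 0.50 and -0.21 log2 against -0.02 to 0.42.

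**Figure D2:**
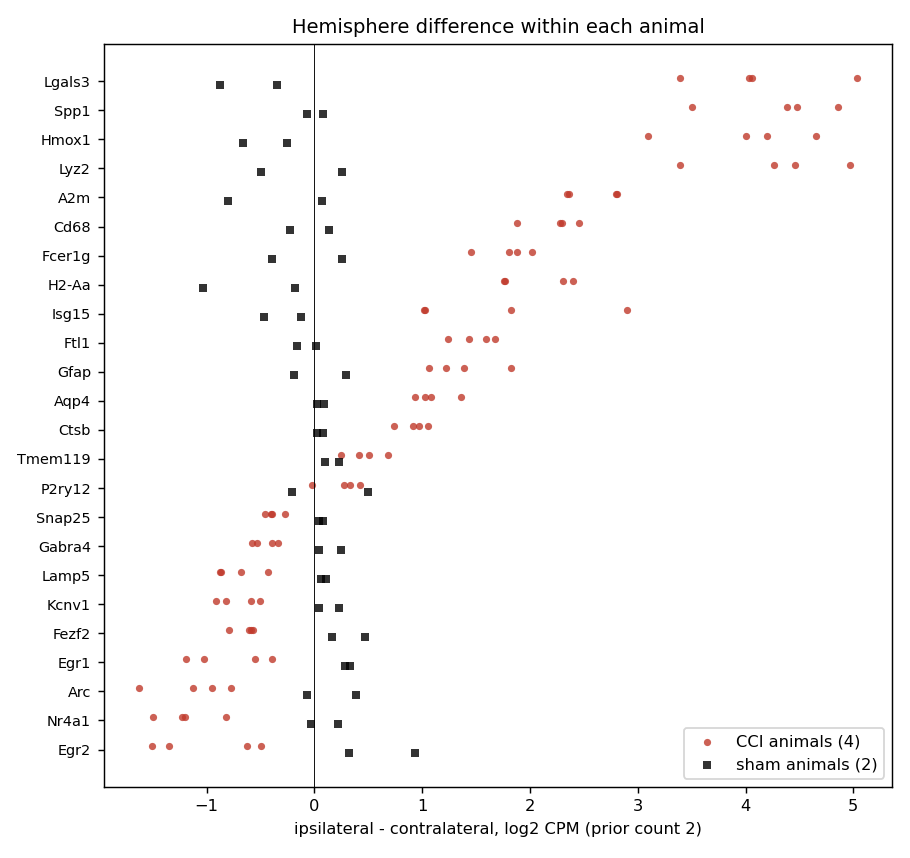
Ipsilateral minus contralateral difference in log2 CPM (horizontal axis, prior count of 2) within each animal for 24 genes (vertical axis), red circles for the 4 CCI animals and black squares for the 2 sham animals. The squares lie within about 1 log2 unit of 0; the circles lie above 3 for Lgals3, Spp1, Hmox1 and Lyz2 and below 0 from Snap25 down, and the 2 kinds of point overlap only for P2ry12.

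Of 36 tested interferon-stimulated genes 11 rose, with a median interaction of 1.27, and 3 did so without sham ipsilateral 6. The number was 6 or 7 without sham ipsilateral 4, sham contralateral 4 or 8, or CCI ipsilateral 5, and 17 without CCI ipsilateral 1. Isg15, a ubiquitin-like modifier, read 5.37, 7.65, 8.90 and 6.10 CPM in CCI ipsilateral, 2.51, 1.96, 0.940 and 2.85 in CCI contralateral, 1.21 and 1.81 in sham ipsilateral and 1.78, 2.00 and 2.38 in sham contralateral libraries (2.21 ± 0.49, adjusted p = 0.00476). Bst2, which tethers budding virus at the cell surface, read 10.3, 10.4, 19.3 and 19.4 CPM in CCI ipsilateral and 1.89 to 4.30 CPM in all other libraries (2.40 ± 0.46, adjusted p = 0.00269). CCI animals 2 and 3 led for Isg15 and animals 3 and 5 for Bst2. The other 9 were Ifit1, Oas2, Rsad2, Rtp4, Ifitm3, Ddx58, Trim30a, Gbp2 and Irgm1, with interactions from 0.88 to 2.39. Irf7, a transcription factor that carries the interferon signal, did not pass (1.17 ± 0.59, adjusted p = 0.268). Among 13 nucleic acid sensors and interferon receptors 6 rose, 3 without sham ipsilateral 6. They included the cGAS adaptor gene Tmem173 (STING, 1.36 ± 0.37, adjusted p = 0.0197) and Irf8, a factor of the myeloid lineage (1.70 ± 0.34, adjusted p = 0.00207). The type I receptor chain Ifnar1 gave 0.08 ± 0.11 and Irf3 -0.02 ± 0.18.

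The promoters of Isg15 and Bst2 are shown because interferon factors act through a short element that can be read in them. The sequences are from RefSeq on GRCm38.p6, 250 bases before to 50 after the gene start, 5′ to 3′ on the gene's strand, with matches to the interferon-stimulated response element (ISRE) in capitals. The ISRE was searched as GAAA, any 2 bases and GAAA on both strands, with overlapping matches joined. Isg15 lies at chr4:156200769-156201068 on the minus strand and its 3 overlapping matches begin 78, 72 and 66 bases before the start. Bst2 lies at chr8:71537423-71537722 on the minus strand and its 2 overlapping matches begin 130 and 124 bases before the start.
Isg15: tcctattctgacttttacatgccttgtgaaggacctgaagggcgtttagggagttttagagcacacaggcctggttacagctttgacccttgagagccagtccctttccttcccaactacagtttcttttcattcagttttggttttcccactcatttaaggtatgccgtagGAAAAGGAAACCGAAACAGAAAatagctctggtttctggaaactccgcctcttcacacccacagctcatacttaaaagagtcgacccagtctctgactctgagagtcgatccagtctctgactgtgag
Bst2: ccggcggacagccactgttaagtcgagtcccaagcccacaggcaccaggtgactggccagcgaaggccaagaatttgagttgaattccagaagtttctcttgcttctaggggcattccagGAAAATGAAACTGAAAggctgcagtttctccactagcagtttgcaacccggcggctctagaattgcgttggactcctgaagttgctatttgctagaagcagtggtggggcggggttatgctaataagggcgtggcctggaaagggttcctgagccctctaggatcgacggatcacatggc
The ISRE letters were in 3.43% of 32817 promoters of this length. Of the 11 interferon-stimulated genes that rose, 9 had a promoter in the table and 9 of these held the letters; of the 36 tested, 25 had a promoter and 17 held them. A match describes the letters of the window and is not evidence that the site was bound.

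Of 6 MHC class II genes 3 rose. H2-Aa read 8.99, 10.6, 19.0 and 12.2 CPM in CCI ipsilateral and 1.36 to 3.63 CPM in all other libraries (2.87 ± 0.50, adjusted p = 0.000948). H2-Ab1 rose by 2.44 ± 0.52 (adjusted p = 0.00301), and the third was the invariant chain gene Cd74. Of 13 MHC class I genes 6 rose, but 1 without sham ipsilateral 6 and 2 or 3 without sham ipsilateral 4, sham contralateral 8, CCI contralateral 1 or CCI ipsilateral 5. The peptide-loading gene Tapbp rose by 0.76 ± 0.16 (adjusted p = 0.00246). The peptide transporter gene Tap1 rose by 1.52 ± 0.41 (adjusted p = 0.0192; 0.154 without that library and 0.0626 without sham contralateral 8). Of 13 cytokine and cytokine receptor genes 7 rose (4 without sham ipsilateral 6), all of them receptor chains, among them the TNF receptor gene Tnfrsf1a (1.22 ± 0.23, adjusted p = 0.00105) and Tgfbr2 for TGF-beta (1.05 ± 0.17, adjusted p = 0.000243). No chemokine gene rose among 11 tested in the main fit, though some did in alternatives. The median interaction of the 11 was 1.17, with a median hemisphere difference of 1.82 in CCI and 0.09 in sham. Ccl2, the ligand of Ccr2, had 37, 14, 26 and 20 counts in CCI ipsilateral and 0 to 3 counts in all other libraries (adjusted p = 0.139). Cxcl10, an interferon-induced chemokine, had 21 to 50 counts against 0 to 6 (adjusted p = 0.632). With 0 to 3 counts in each sham library, ratios between sham hemispheres were not resolved at this depth. Cx3cl1, which neurons make for the microglial receptor Cx3cr1, fell by 0.44 on the log2 scale (SE 0.11, adjusted p = 0.0112), a call lost without sham ipsilateral 4 or 6.

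Among genes of iron and haem handling, Ftl1, the ferritin light chain that stores iron, had the smallest p of all genes. It read 661, 555, 670 and 713 CPM in CCI ipsilateral, 244, 235, 222 and 223 in CCI contralateral, 195 and 192 in sham ipsilateral and 219, 190 and 223 in sham contralateral libraries (1.61 ± 0.11, adjusted p = 1.46e-09). Hmox1, haem oxygenase 1, which opens the haem ring and frees its iron, read 103, 72.4, 106 and 128 CPM in CCI ipsilateral and 3.27 to 8.24 CPM in all other libraries (4.41 ± 0.57, adjusted p = 0.00145). The ferritin heavy chain gene Fth1 did not pass (0.17 ± 0.09, adjusted p = 0.246) and Tfrc, the transferrin receptor that takes iron up, fell by 0.41 (SE 0.09, adjusted p = 0.005). Of the 15 tested members 5 rose (2 without sham ipsilateral 6) and 1 fell. The 5 haemoglobin and erythroid genes summed to 74.0 to 131 CPM in CCI ipsilateral, 94.8 to 136 in CCI contralateral and 72.6 to 151 over the sham libraries, which overlapped, and none of them passed.

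Of 20 tested reactive astrocyte genes 13 rose (7 without sham ipsilateral 6), with a median of 1.75. A2m, a protease inhibitor of the acute phase, rose by 2.93 ± 0.25 (adjusted p = 2.8e-08). It read 106, 97.7, 95.1 and 112 CPM in CCI ipsilateral, 13.7 to 20.4 in CCI contralateral and 3.79 to 6.99 over the sham libraries. S1pr3, a sphingosine 1-phosphate receptor, rose by 1.85 ± 0.25 (adjusted p = 4.92e-05). Gfap, the astrocyte intermediate filament, stood at 1136, 1037, 1682 and 1989 CPM in CCI ipsilateral, 488, 495, 641 and 563 in CCI contralateral, 167 and 195 in sham ipsilateral and 192, 159 and 224 in sham contralateral libraries. Every CCI contralateral library exceeded every sham library, a difference of 1.51 log2 beside an interaction of about the same size (1.497 ± 0.38, adjusted p = 0.0434). The call on Gfap was lost in 12 of the 25 alternatives, among them the fit with each animal as a block (adjusted p = 0.0845). It was lost without sham ipsilateral 4 or 6 (adjusted p = 0.142 and 0.143) and without sham contralateral 4 or 8 (0.0876 and 0.102). It was lost too without the contralateral libraries of CCI animals 1, 2 or 5 (adjusted p = 0.0803, 0.0798 and 0.0627) or the ipsilateral libraries of CCI animals 3 or 5 (0.0718 and 0.0512). Serpina3n, a serine protease inhibitor of reactive astrocytes, showed the same order of groups. It read 208 to 299 CPM in CCI ipsilateral, 50.9 to 74.8 in CCI contralateral and 16.2 to 18.6 over the sham libraries. Its interaction was 2.06 ± 0.32 (adjusted p = 0.00432) and its contralateral difference 1.77.

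Of 12 homeostatic astrocyte genes 5 rose, with a median of 0.35 over the 12. The number was 2 without sham contralateral 8 and 3 without sham contralateral 4, either sham ipsilateral library or CCI ipsilateral 5. Aqp4, the water channel of astrocyte endfeet, read 361, 395, 459 and 514 CPM in CCI ipsilateral and 167 to 217 CPM in all other libraries (1.13 ± 0.17, adjusted p = 0.00246). Gja1, the gap junction protein connexin 43, rose by 0.68 ± 0.10 (adjusted p = 0.000153). The glutamate transporter genes Slc1a2 and Slc1a3 gave 0.03 ± 0.10 and 0.17 ± 0.08 and did not pass. Of 22 matrix and scar genes 13 rose, 8 without either sham ipsilateral library. Tnc, the scar glycoprotein tenascin C, rose by 2.33 ± 0.26 (adjusted p = 1.42e-06), Tgfbi by 2.23 ± 0.31 (adjusted p = 4.92e-05) and the collagen gene Col3a1 by 2.96 ± 0.50 (adjusted p = 0.00397). Tnc read 24.3, 20.2, 26.8 and 29.8 CPM in CCI ipsilateral and 4.72 to 6.72 CPM in all other libraries, and its CCI contralateral libraries did not stand above sham (-0.23 log2). Markers of fibroblasts moved with these lists. Of 9 meningeal fibroblast genes 3 rose, Lum, a collagen-binding proteoglycan, by 2.22 ± 0.38 (adjusted p = 0.000429), and 1 rose without sham contralateral 8 or without either sham ipsilateral library. The list summed to 178 to 219 CPM in CCI ipsilateral libraries, 184 in sham contralateral 8 and 134 to 153 in the other 8. Its part in the matrix genes was not tested.

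**Figure D3:**
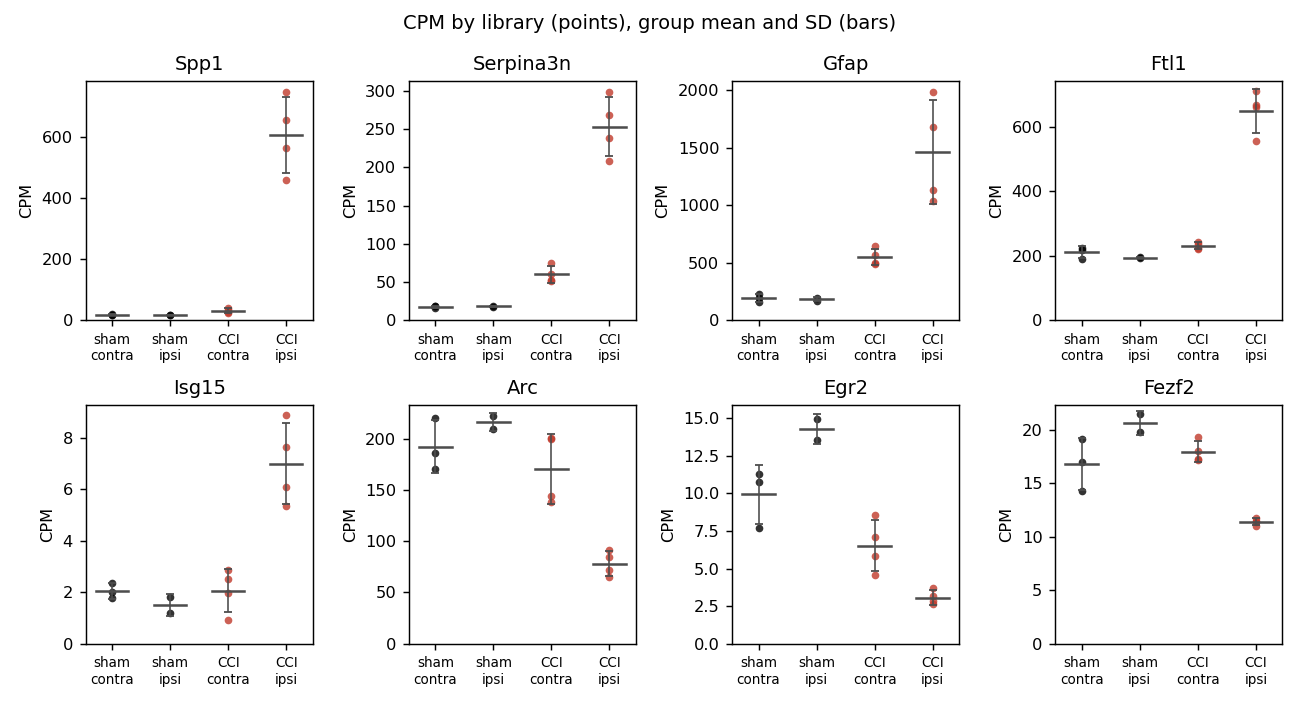
CPM of 8 genes (vertical axes, each starting at 0) in each library, by group, with the group mean (horizontal bar) and SD (whiskers; n = 3, 2, 4 and 4 from left to right); black points are sham and red points CCI. Ftl1 and Isg15 stand apart in CCI ipsilateral alone. Gfap and Serpina3n step up in CCI contralateral as well, and so does Spp1 by less (22.4 to 40.2 CPM against 16.5 to 19.9 over sham). Arc, Egr2 and Fezf2 are lowest in CCI ipsilateral and highest on average in sham ipsilateral.

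Among genes that fell, immediate early genes had the most negative median of any list. Of 20 tested, 11 fell and none rose, with a median interaction of -0.86; 6 fell without sham ipsilateral 6. Egr2, a zinc-finger factor induced by activity, read 2.82, 3.70, 3.15 and 2.62 CPM in CCI ipsilateral, 8.55, 5.87, 4.57 and 7.12 in CCI contralateral, 14.98 and 13.6 in sham ipsilateral and 7.72, 10.8 and 11.3 in sham contralateral libraries. The 2 sham ipsilateral libraries were the highest of all and the 4 CCI ipsilateral libraries the lowest. Both sides of the contrast thus added to the interaction (-1.59 ± 0.29, adjusted p = 0.000913), with -1.07 ± 0.21 in CCI and 0.52 ± 0.21 in sham. Arc, whose protein moves to active synapses, read 91.5, 84.1, 71.6 and 64.8 CPM in CCI ipsilateral and 139 to 201 in CCI contralateral libraries, against 171 to 223 over the sham libraries. It fell by 1.30 on the log2 scale (SE 0.26, adjusted p = 0.0154; 0.0799 with each animal as a block and 0.0877 without sham ipsilateral 6). Nr4a1, an orphan nuclear receptor gene, fell by 1.27 (SE 0.16, adjusted p = 0.000149) with 31.9 to 45.4 CPM in CCI ipsilateral and 73.9 to 109 CPM in all other libraries, and here the sham difference was small (0.09 ± 0.12). Egr1 fell by 1.13 (SE 0.23, adjusted p = 0.0163; 0.0927 with each animal as a block and 0.0935 without sham ipsilateral 6), and Fos by 0.92 (SE 0.17, adjusted p = 0.00137). Fosb, Fosl2, Egr3, Nr4a2, Nr4a3, Ier2, Nptx2, Per1 and Klf4 did not pass, with interactions from -0.92 to -0.29.

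The promoter of Egr2 is shown because, among the 15 tested immediate early genes with a promoter in the table, it was the one with a serum response element core. Of its 5 promoters in the table the one with the match lies at chr10:67537316-67537615 on the plus strand (RefSeq, GRCm38.p6), with the match to the CArG box, the letters that serum response factor binds, in capitals, 72 bases before the start.
Egr2: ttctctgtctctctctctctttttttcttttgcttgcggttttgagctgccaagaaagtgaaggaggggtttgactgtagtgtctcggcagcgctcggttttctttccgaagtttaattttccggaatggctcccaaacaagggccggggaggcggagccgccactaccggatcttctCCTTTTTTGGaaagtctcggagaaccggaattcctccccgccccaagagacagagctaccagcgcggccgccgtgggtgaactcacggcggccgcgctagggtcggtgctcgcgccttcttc
The CArG box was in 1.63% of the 32817 promoters and the cAMP response element TGACGTCA in 1.79%; of 9 immediate early genes that fell and had a promoter in the table, 1 held the former and 1, Dusp1, the latter. These windows reach 250 bases before the start and say nothing of more distant enhancers.

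Neuronal lists had members that fell and none that rose, while 2.99% of all genes tested fell and 4.84% rose. The sham side moved too: over the synaptic genes the median hemisphere difference was -0.20 log2 in CCI and 0.11 in sham. It was -0.20 and 0.09 over the ion channel genes, and -0.24 and 0.07 over the glutamate and GABA receptor genes. Of 20 synaptic genes 11 fell (3 without sham ipsilateral 6, 18 with each animal as a block), with a median of -0.30. Snap25, the membrane-fusion protein of synaptic vesicle release, read 1948, 2074, 1995 and 1834 CPM in CCI ipsilateral and 2479 to 2926 CPM in all other libraries (-0.48 ± 0.08, adjusted p = 0.00058). Of 18 voltage-gated ion channel genes 9 fell (3 without that library), led by Kcnv1, a modifier subunit of potassium channels, at -0.89 ± 0.12 (adjusted p = 1.33e-05), and Scn1a, a sodium channel, at -0.56 ± 0.11 (adjusted p = 0.00154). Of 18 glutamate and GABA receptor genes 6 fell (2 without that library), among them Gabra4 by 0.56 (SE 0.11, adjusted p = 0.00124). Of 12 inhibitory neuron genes 3 fell, the peptide genes Sst, Vip and Cck, and 1 fell without sham ipsilateral 4. Sst, somatostatin, fell by 0.44 (SE 0.11, adjusted p = 0.00803; 0.0525 without sham ipsilateral 4).

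Cortical excitatory neuron genes, of which 9 of 16 fell (5 without sham ipsilateral 6), had both sides of the contrast moving. Fezf2, a factor of deep-layer projection neurons, read 11.4, 11.0, 11.5 and 11.7 CPM in CCI ipsilateral, 17.2 to 19.3 in CCI contralateral, 19.8 and 21.4 in sham ipsilateral and 14.3, 19.1 and 16.9 in sham contralateral libraries. Its interaction was -0.95 ± 0.17 (adjusted p = 0.000764). Lamp5, a gene of upper-layer and some inhibitory neurons, fell by 0.77 (SE 0.12, adjusted p = 0.000728), and nearly all of that was within CCI (-0.71 against 0.06 in sham). Over the 16 genes the median hemisphere difference was -0.17 log2 in CCI and 0.18 in sham. The list summed to 1927 to 2027 CPM in CCI ipsilateral, 2190 to 2378 in CCI contralateral, 2242 to 2431 in sham contralateral and 2617 to 2665 in sham ipsilateral libraries. The sham ipsilateral libraries thus held more of it than any other, and the CCI ipsilateral libraries less. The synaptic, ion channel, striatal and immediate early lists also had their highest sums in the sham ipsilateral libraries. The part of the dissected tissue in this cannot be told apart from the surgery with 2 sham ipsilateral libraries.

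**Figure D4:**
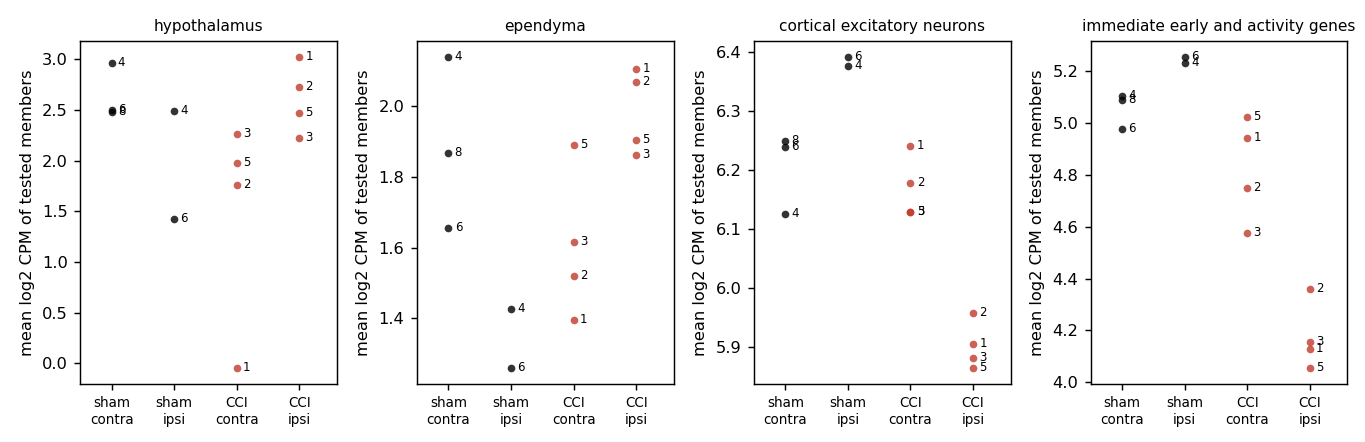
Mean log2 CPM of the tested members of 4 lists (vertical axes) in each library, by group; the number beside a point is the animal. The hypothalamic list is lowest at -0.05 in CCI contralateral 1, ependymal genes are low in both sham ipsilateral libraries (1.26 and 1.43), cortical excitatory genes are highest there (6.38 and 6.39), and immediate early genes are lowest in the 4 CCI ipsilateral libraries.

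The sham hemisphere difference was the larger of the 2 in 111 of the 1165 genes that rose or fell, 53 that rose and 58 that fell. Tmsb10, an actin-binding thymosin, was at 74.9 CPM in both sham ipsilateral libraries and at 81.5 to 103 in all other libraries. It had a sham difference of -0.35 ± 0.08 and a CCI difference of 0.13 ± 0.06 (interaction 0.48 ± 0.10, adjusted p = 0.00257). Gins2, a subunit of the replicative helicase complex, had a sham difference of -0.995 ± 0.24 and a CCI difference of 0.62 ± 0.16. Gm12070 had 37 counts on each CCI side, 0 in sham ipsilateral and 9 to 15 in each sham contralateral library. It was called (adjusted p = 0.0136; 0.119 and 0.0672 without sham ipsilateral 6 or 4). Tes3-ps and Gm29374 likewise had 0 counts in both sham ipsilateral libraries, so no fold is given for them.

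In 48 genes that rose or fell, the contralateral CCI minus sham difference was at least 0.5 times the interaction in size. It had the sign of the interaction in 19 that rose and 5 that fell and the opposite sign in 15 and 9. Apod, an apolipoprotein of glia, read 231 to 260 CPM in CCI contralateral against 164 to 190 over the sham libraries, and 298 to 400 in CCI ipsilateral libraries. Its interaction (0.69 ± 0.12, adjusted p = 0.00147; contralateral 0.42) came with the order of groups seen for Gfap and Serpina3n. Fcgr2b, the inhibitory Fc receptor, showed it too (1.58 ± 0.31, adjusted p = 0.00147; contralateral 1.00). Peg10, a retrotransposon-derived imprinted gene, went the other way: 59.1 to 63.4 CPM in CCI contralateral against 68.4 to 97.2 over the sham libraries, with 76.9 to 102 in CCI ipsilateral libraries (0.82 ± 0.14, adjusted p = 0.000729; contralateral -0.47). For Peg10 the CCI ipsilateral libraries overlapped sham contralateral ones, while they lay above both sham ipsilateral ones.

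Of 19 cholesterol synthesis genes 4 fell (none without sham ipsilateral 6, 2 without sham contralateral 8, 7 with each animal as a block), with a median of -0.35. Insig1, which holds the pathway's sensor in the endoplasmic reticulum, fell by 0.46 (SE 0.12, adjusted p = 0.0122; 0.0998 without that library). Of 6 genes of lipid export and storage 3 rose. Abca1, the cholesterol exporter, went from 63.2 to 77.3 CPM in CCI contralateral to 131 to 171 in CCI ipsilateral libraries (1.17 ± 0.13, adjusted p = 1.73e-06). Plin2, a lipid droplet coat protein, read 7.12 to 8.11 CPM in CCI contralateral and 31.6 to 56.7 CPM in CCI ipsilateral libraries (2.86 ± 0.34, adjusted p = 8.02e-05). Plin3 was the third. Of 21 cell cycle genes 4 rose, or 19.0% beside 4.84% of all genes tested. They were Top2a, the topoisomerase of dividing cells, by 2.94 ± 0.44 (adjusted p = 8.02e-05), and Ccna2, Cdc20 and Mcm3. The number was 1 without sham ipsilateral 6, where Mcm3 was among those lost (adjusted p = 0.113), and 2 without sham ipsilateral 4 or sham contralateral 4. It was 7 without CCI ipsilateral 2 and 7 with each animal as a block. Of 12 axon injury and regeneration genes 4 rose, 2 without sham ipsilateral 6. They included Atf3, a stress factor of injured neurons (3.07 ± 0.65, adjusted p = 0.00324), and Ecel1, a neuronal protease (1.35 ± 0.22, adjusted p = 0.000679). Gap43 and Stmn2 gave 0.08 and -0.03 and did not pass.

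**Figure D5:**
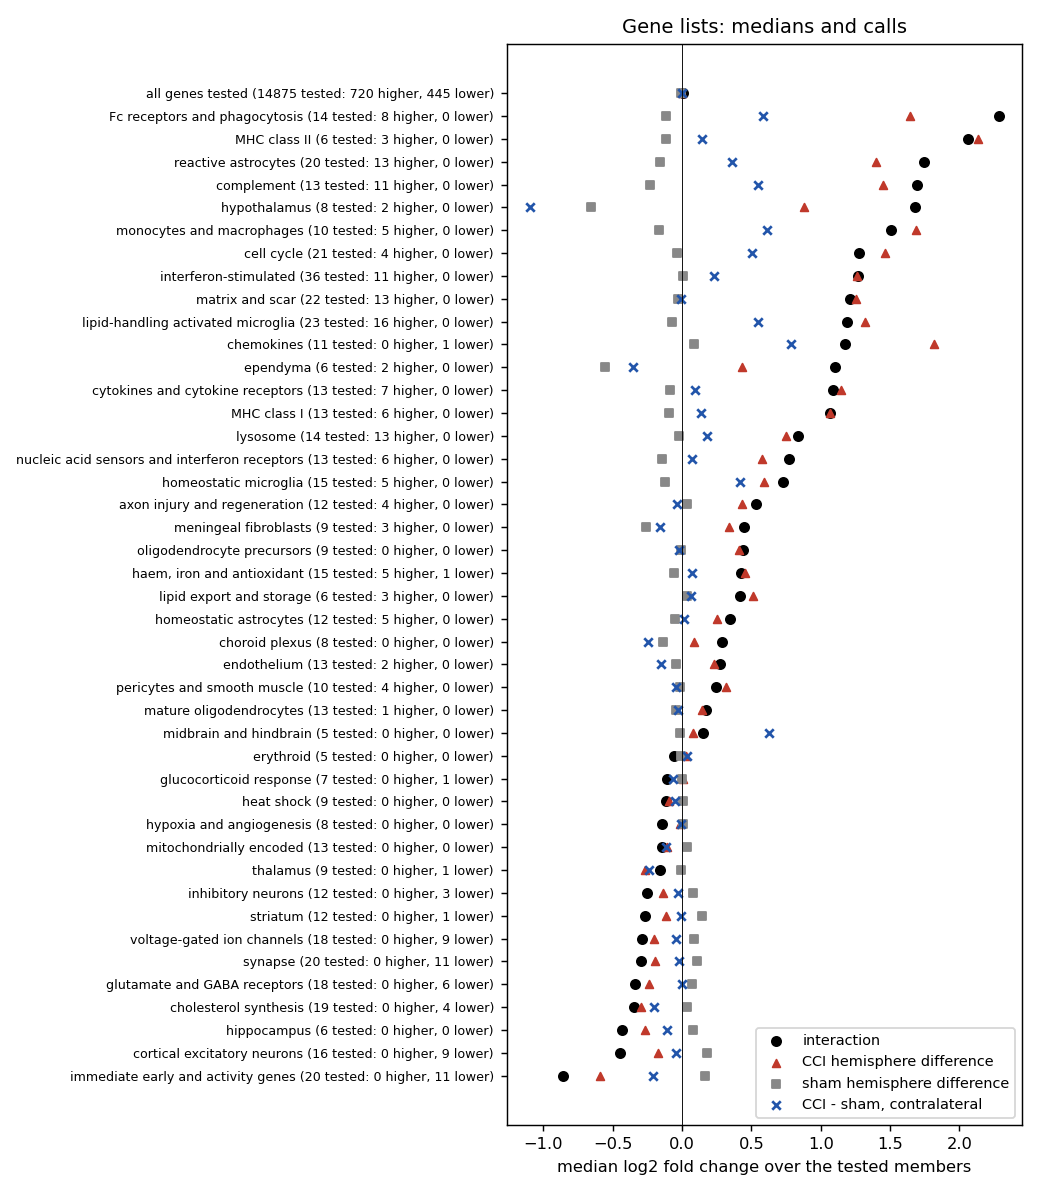
Median log2 fold change over the tested members (horizontal axis) of each list with at least 5 tested members (vertical axis, with the numbers tested, higher and lower), for the interaction and 3 of the differences behind it. The interaction (black) runs from 2.29 for Fc receptor genes to -0.86 for immediate early genes, and the hypothalamic and ependymal lists are the ones whose sham difference (grey) lies farthest below 0.

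Calls in the myelin, vessel and regional lists were few in number, and most of them depended on single libraries, as did those of several lists above. The share called ran from 0 in some lists to 40% in the pericyte and smooth muscle list, beside 7.83% of all genes in either direction. Of 12 striatal genes 1 fell, and of 9 thalamic genes 1 fell. Of 13 mature oligodendrocyte genes 1 rose, Cldn11 (0.46 ± 0.13, adjusted p = 0.0366), while the myelin protein gene Mbp gave 0.18 ± 0.13 and did not pass. Of 9 oligodendrocyte precursor genes none passed, though their median interaction was 0.44. They summed to 606 to 760 CPM in CCI ipsilateral and 439 to 496 in CCI contralateral libraries. The sums were 471 to 485 CPM in sham ipsilateral and 446 to 552 in sham contralateral libraries. Of 13 endothelial genes 2 rose, the junction genes Pecam1 (0.66 ± 0.16, adjusted p = 0.00824) and Cdh5 (0.84 ± 0.22, adjusted p = 0.0152), and neither list of the 2 kept a call without sham ipsilateral 6. Of 10 pericyte and smooth muscle genes 4 rose, 1 without sham contralateral 8 and none without sham ipsilateral 6: Tagln, a smooth muscle actin-binding protein, by 1.35 ± 0.30 (adjusted p = 0.00641; 0.0821 without the latter). Heat shock (9 tested), hypoxia and angiogenesis (8), choroid plexus (8), hippocampal (6) and mitochondrially encoded genes (13) gave no call. Markers of neutrophils, of T and NK cells and of B cells were mostly below the filter on low counts, with 2, 1 and 1 genes tested of 8, 8 and 5 listed, and none passed. Of 8 hypothalamic genes 2 rose, Pomc (2.14 ± 0.62, adjusted p = 0.0298) and Nkx2-1 (1.93 ± 0.59, adjusted p = 0.0399). They had 2 to 11 and 4 to 16 counts a library in CCI contralateral against 12 to 32 and 9 to 19 in CCI ipsilateral. Neither was called without sham ipsilateral 6, sham contralateral 4, CCI contralateral 1 or CCI ipsilateral 5. Pomc was lowest in CCI contralateral 1 (0.295 CPM) and next lowest in sham ipsilateral 6 (0.906 CPM), both low in hypothalamic peptide genes. Nkx2-1 was lowest in CCI contralateral 2 (0.559 CPM) and then in sham ipsilateral 6 (0.755 CPM). The part of dissection in these calls was not tested.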

How the data were processed

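Per the submitters' processing notes, reads were demultiplexed with bcl2fastq, quantified with RSEM on GRCm38 (mm10) and compared with DESeq2; their versions, the aligner, the annotation and the strand setting were not given in sources used here. The labels name a stranded mRNA kit. The authors deposited RSEM expected counts and TPM for 43411 genes in 13 libraries, and a table of their log2 estimates. Expected counts (9.76% of values not whole) were rounded here. After edgeR's filter on low counts by group, 14875 genes were tested with edgeR 4.0.16 (R 4.3.3), TMM scaling, 4 group means and the robust quasi-likelihood test of the interaction; p was adjusted by Benjamini-Hochberg over all of them. SE is the log2 value over the root of F. Per-animal differences used log2 CPM with a prior count of 2. Alternatives used DESeq2 1.42.0 and limma 3.58.1, the latter as voom with the animal as a random effect and on log2 of the deposited TPM. They also used other scalings and filters, an animal block, and the omission of each library. The fit was tested on simulated counts with known changes in the CCI ipsilateral libraries only. These had the same spread for every gene and no animal effect, so they say nothing of the pairing of hemispheres.

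The labels give animal numbers, and hemispheres of an animal share one; deviations from group means correlated at 0.0035 to 0.088 within the 6 animals with both hemispheres and at -0.060 to 0.027 between animals of the same treatment. In the voom fit, which took the animal as a random effect, the correlation within animals was estimated at 0.155. Each library is a separate hemisphere. The p-values treat the 2 of an animal as independent, except in the voom fit and where the block is named. Replicate libraries differed by more than counting noise (chi-square per degree of freedom 2.06 to 3.99). IDs matched the GENCODE M21 annotation in 98.9%.

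The members are libraries, and the 48 gene lists and the naming rule were chosen with earlier results of these data known. Genes described are the 8 most positive and 8 most negative called genes with a mean of at least 1 CPM, the 2 called genes of smallest p in each list with at least 3 calls, the 6 of smallest p where sham moved more, the 6 where the contralateral difference was large, and Ccr2, Spp1, Gfap, Isg15, Arc, Aqp4, Tmem119 and P2ry12; other list members were chosen after their values were seen. Some genes that this rule picks are not reported here. Of 635 listed genes 630 were in the table and 569 tested; Lilrb4a, Ifi207, Mki67, Scn2a and Ly6g were not analysed here. In the table, 16 listed genes are at 0 in every library, among them Vim, Glul and Gad2, which brain tissue uses, and every protein-coding gene is at 0 between 120 and 130 and between 150 and 160 Mb of chromosome 1 and in the first 20 Mb of chromosome 2 (GENCODE M21 positions); such genes have no usable value. A gene passes the filter through its highest group, so counts over tested members describe the tested members. The labels do not say whether animals were operated on different days.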

Additional observations from a re-analysis of the deposited data

Results flagged for a closer look

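A hemisphere difference that differs between CCI and sham is the contrast itself: 720 genes were higher and 445 lower by edgeR's interaction test. Among 164 sets of 4 libraries of the named genes, 10 held a library far from the other 3; chance flags about 1 in 20 sets, so the number is near what chance gives.

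Tes3-ps and Gm6863 were each at 0 CPM in CCI contralateral 5, and S1pr3 was at 13.9 CPM there. In other CCI contralateral libraries, Gm10702 was at 1.68 CPM in animal 2, Aif1 at 8.73 CPM in animal 3 and Bst2 at 2.80 CPM in animal 1. Among CCI ipsilateral libraries, Tgm3 was low at 0.872 CPM in animal 5 and Insig1 at 55.0 CPM in animal 1. Animal 2 was low for Mcm3 at 6.29 CPM and for P2ry12 at 32.7 CPM, and it was the CCI animal with the smallest hemisphere difference for Spp1, Lgals3 and Hmox1.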

How the results depend on the processing

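Over 25 alternatives for 82 named genes, 1912 gene results kept their direction and call, 127 lost the call and none changed direction; of all 1165 called genes, 2 changed direction on TPM values. Leaving out 1 library at a time gave 259 to 953 genes higher, 134 to 504 lower, 75 to 184 list members higher and 24 to 64 lower, against 720, 445, 150 and 58; the lowest values came without sham ipsilateral 6, which kept 368 of the 1165 calls, and leave the arm with 1 library, assumed to vary like the other groups. Without it and CCI contralateral 1, an alternative chosen after seeing the data, 194 genes were higher and 88 lower, with 62 and 19 list members. Library totals as the only scaling gave 275 lower genes. On TPM, lower genes numbered 164 with a pseudocount of 1, 152 with 0.1 and 153 with a mean TPM filter, and lower list members 28, 27 and 27; the cause was not tested. With the animal as a replicate block, 705 genes were higher and 655 lower, 988 of the 1165 calls were kept, and of the named genes Arc, Egr1, Lyz2, Gfap, Tes3-ps, Gp49a, AI607873, Gm10702, Tgm3, Gm15542 and Hist2h2aa1 lost the call. DESeq2 gave 561 and 422, voom 832 and 624, no filter 879 and 621. At 5604856 to 7955076 counts a library, genes under 3 counts in a sham group gave no usable fold, and 2 sham ipsilateral libraries limit every value.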

Other observations

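Cytoplasmic ribosomal protein genes, a list added after their values were seen, held 12 higher and no lower genes of 80 tested. That is 15%, beside 4.84% higher and 7.83% called in either direction over all genes tested. The list's median interaction was 0.19. Its median hemisphere difference was 0.02 log2 in CCI and -0.20 in sham, so most of the contrast came from the sham side. Of 6 ependymal genes tested 2 were higher, Rarres2 and Ccdc153, and the list's median hemisphere difference was 0.43 log2 in CCI and -0.55 in sham. Rarres2 read 6.98, 6.17, 6.02 and 7.10 CPM in CCI ipsilateral, 3.38 to 5.10 in CCI contralateral, 3.10 and 1.96 in sham ipsilateral and 3.85 to 4.90 in sham contralateral libraries. Ccdc153, a gene of motile cilia, read 2.19 to 3.35 CPM in CCI ipsilateral, 1.18 to 2.67 in CCI contralateral, 1.55 and 1.36 in sham ipsilateral and 2.68 to 4.01 in sham contralateral libraries. Neither gene was called without sham ipsilateral 6.

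Hist2h2aa1, a replication-dependent histone gene with near-identical copies between which counts can be split, had 19 and 12 counts in sham ipsilateral, 0 in each of 3 sham contralateral, 3 to 10 in CCI contralateral and 0 to 9 in CCI ipsilateral libraries (adjusted p = 0.00389 by edgeR; 0.0748 with each animal as a block).

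The authors' deposited table could be set beside the same differences computed from the 13 libraries, over 7935 genes with a mean of at least 20 CPM. For the hemisphere difference within CCI the authors' estimates and those computed here were apart by a median of 0.00077 log2 and correlated across genes at r = 1.000. For comparisons that use sham libraries they were not: r across genes was 0.755 for the sham hemisphere difference, 0.516 for CCI against sham contralateral and 0.861 for CCI against sham ipsilateral, with 12, 69 and 98 genes apart by more than 0.5 log2. For Gfap the authors' deposited table gives a sham hemisphere difference of 0.94 where the sham libraries used here (167 and 195 CPM against 159 to 224) give -0.08, and the difference of the authors' 2 hemisphere estimates is 0.48 where the interaction here is 1.497. For Serpina3n the authors' table gives 0.69 for sham against 0.01 here, and for Egr2 -0.0006 against 0.52. For Spp1, Lgals3 and Ftl1 the differences of the authors' estimates are 4.13, 5.14 and 1.53, beside 4.37, 5.36 and 1.61 here. The sources used here do not say which sham libraries entered the authors' table.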
